A study of Drosophila melanogaster with 4 samples.

Results

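Of the 8614 Myc peaks listed for wandering Drosophila larvae, 248 lay on the small chromosome 4, on the scaffolds of assembled heterochromatin or on U, and these 248 are described here. They were taken by sequence name alone, with no filter on width or score, and all 248 entered the main summaries. Where some of them were left out of a value, this is said. They form 3 subgroups: 99 peaks on chromosome 4, 63 on the 5 scaffolds 2LHet, 2RHet, 3LHet, 3RHet and XHet, and 86 on U, the collection of scaffolds with no assigned chromosome. Together they were 2.88% of the list. They were set against the 6291 peaks of the chromosome arms 2L, 3L, 3R and X. The 1477 peaks of the arm 2R and the 598 of the sequence Uextra were not compared. Statements about the arms below therefore cover 2L, 3L, 3R and X only.

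The peaks came from chromatin immunoprecipitation and sequencing (ChIP-seq) of whole third-instar larvae grown at 25 °C and fixed in 1.8% formaldehyde for 15 min. The labels name 2 ChIP libraries made with the rabbit polyclonal antibody MycN, raised against residues 46 to 507 of the fly Myc protein, and 2 libraries of input DNA. All libraries came from the strain Y cn bw sp, with no sex recorded and no treatment or transgene named. Its genotype joins the markers y[1], cn[1], bw[1] and sp[1] with the alleles oc[R3.2], CG33964[R4.2] and lab[R4.2] and with Gr22b[1] and Gr22d[1], and it also carries GstD5[1], LysC[1], Rh6[1] and MstProx[1]. Whole larvae mix many tissues, and a peak cannot be traced to one of them. Whether the 2 libraries of each kind were made from different batches of larvae is not recorded. The list gives 1 position and 1 score per peak for the whole series and no value per library. The depth is therefore unknown, there is no replicate spread, and no test between sets of peaks was made. Differences below are descriptions of 1 list, and an interval given with a share or a median treats peaks as independent and covers counting error only.

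Myc is a transcription factor of the basic helix-loop-helix class that pairs with Max and promotes cell growth, ribosome production and metabolism. Chromosome 4, also called the dot chromosome, is unusual in that its genes are transcribed although the chromosome is rich in repeats and coated by heterochromatin protein HP1a and by the chromosome-specific protein POF. It carries developmental regulators such as ci, which encodes the Hedgehog pathway's transcription factor, ey, a master regulator of eye formation, pan, the transcription factor of the Wingless pathway, and zfh2, a zinc finger homeodomain protein. The Het scaffolds hold pieces of the repeat-rich chromatin around the centromeres, and in them genes are sparse and embedded among transposon remnants. Positions along the Het scaffolds and U follow the assembly, which joins separate pieces, so an interval there need not be a distance on a chromosome. Positions are those of FlyBase Release 5. No annotation of that release was used here, so no peak was given a gene and no sequence is shown.

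The 3 subgroups differed in how thickly they were set with peaks. Chromosome 4 carried 73.3 peaks per Mb, counted from base 1 to the end of its last peak, and 7.87% of that span was covered. The same measures on the 4 arms ran from 63.4 peaks per Mb on 3L to 65.1 on X, and from 5.80% covered on 3L to 6.57% on X. The Het scaffolds together carried 7.40 peaks per Mb with 0.604% covered, and U carried 8.58 peaks per Mb with 1.03% covered. Among single scaffolds the density was 6.31 per Mb on 3RHet (15 peaks), 7.02 on 2RHet (23 peaks), 7.47 on 3LHet (18 peaks) and 10.8 on 2LHet (4 peaks). The 35.3 per Mb of XHet rests on 3 peaks, and counted from its first to its last peak the value was 123.4 per Mb. Chromosome 4 was thus close to the arms in density. U and the Het scaffolds other than XHet were set more sparsely than any of the 4 arms by either span. The list holds no input level and no record of where reads could be placed.

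The density of chromosome 4 was above that of the arms by a small margin, and this order did not hold once close neighbours were merged. With peaks less than 1 kb apart merged, chromosome 4 held 71 regions, or 52.5 per Mb, below the 53.3 per Mb of X, the lowest of the 4 arms when merged in the same way, and the 56.3 of 3R, the highest. Without the last 70.1 kb that held peaks, chromosome 4 had 59.3 peaks per Mb. Leaving out a densely set stretch lowers the density by construction, and no like stretch was left out on the arms.

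Counted per gene, chromosome 4 stood farther above the arms. A gene table of Release 6, used for numbers of genes only, lists 80 protein-coding genes on chromosome 4, which gives 1.24 peaks per coding gene. On the arms this value ranged from 0.534 (3R) and 0.549 (2L) to 0.568 (3L) and 0.665 (X). With close peaks merged the value was 0.888 on chromosome 4 and between 0.462 on 3R and 0.543 on X. Over listed genes of every kind it was 0.868 on chromosome 4 and at most 0.540, on X. A value per gene is higher where listed genes are fewer per Mb, also at a like density of peaks. The table lists 2197 coding genes on X and 3398 on 3R, with Release 5 spans of 22.4 and 27.9 Mb to the last peak. The 80 of chromosome 4 go with a span of 1.35 Mb, which is fewer genes per Mb. The value does not measure binding at single genes. The table may differ from Release 5 in the genes it assigns to each chromosome, and how many of the peaks lie at genes is not known here.

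Along chromosome 4, the Myc peaks were spread over the whole span and packed at its far end. The first peak lay from 64061 to 64947, with a score of 118.98, and the last from 1349884 to 1351122, with a score of 157.59. In consecutive stretches of 250 kb the number of peaks was 20, 15, 16, 12 and 13, and the remaining 101.1 kb held 23. The density was between 48.0 and 80.0 per Mb in the full stretches and 227.4 per Mb in the remainder. The longest stretch without a peak was 96.9 kb, from the peak ending at 231348 to the one starting at 328206. None of the 98 intervals of chromosome 4 exceeded 100 kb, where 1.86% of the 6287 intervals on the 4 arms did.

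The peaks at the far end, the side away from the centromere, formed the densest group on chromosome 4. From 1281034 to 1351122, a length of 70.1 kb singled out after the values were seen, 23 peaks followed one another with no interval over 8394 bp, and they covered 31.0% of the stretch. No window of that length opened at any of the 6291 peaks of the 4 arms held as many, a share of 0% of these overlapping windows. The fullest window held 20 peaks on 2L and 19 on X, compared with 18 on 3R and 16 on 3L, and the median arm window held 6. The order changed when close peaks were merged. The stretch then held 13 regions, and 13 of 5328 arm windows held at least as many, with 15 in the fullest. Among peaks at or above the median score of the list, 61.16, it likewise held 13, and 13 of 3187 arm windows held at least as many.

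Scores within this stretch ran from 13.96 to 698.33 with a median of 68.2, against a median of 83.2 over the 76 other peaks of chromosome 4. It held the 2 strongest peaks of the chromosome as well as weak ones. The score is the peak caller's own value on a scale that the file does not name, and it is used to order peaks and to compare medians, with no ratio of scores. Of the 23 peaks, 6 were among the strongest 10% of the whole list, or 26.1%. Of the 76 peaks before the stretch it was 6, or 7.89%, against 10.8% of arm peaks.

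**Figure D1:**
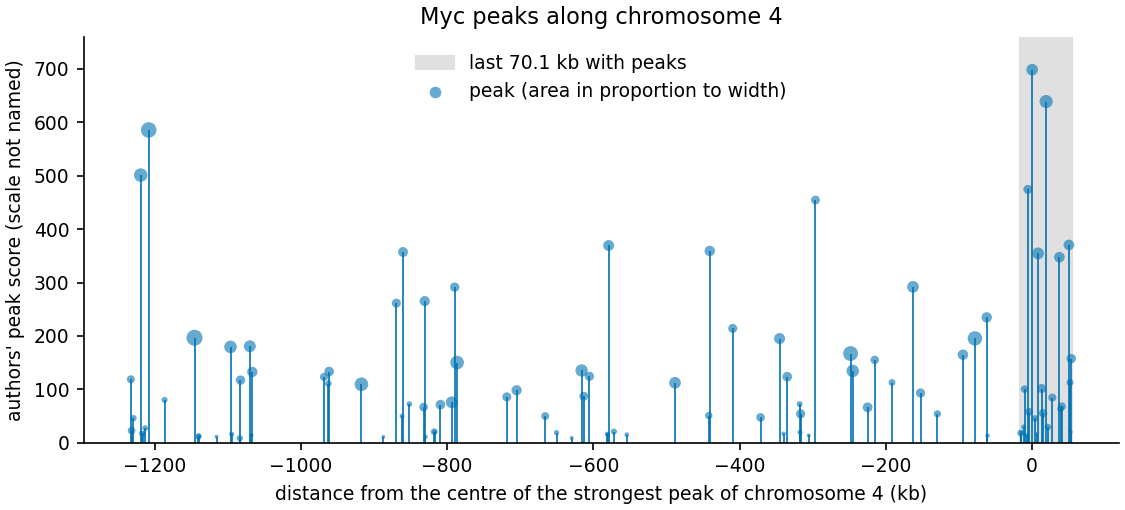
Score of each of the 99 Myc peaks of chromosome 4 (vertical axis, authors' score) against distance in kb from the centre of its strongest peak (horizontal axis). The area of a point is in proportion to peak width, and grey marks the last 70.1 kb with peaks, where 23 peaks lie, the strongest 2 of the chromosome among them.

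The strongest Myc peak of chromosome 4, from 1296113 to 1297980, scored 698.33 and was 1868 bp wide. It ranked 73 in the list of 8614. The next, from 1314940 to 1317337, scored 638.71 over 2398 bp and ranked 118. Both lay in the far stretch, as did the peak from 1290597 to 1291730, with a score of 474.25 over 1134 bp. The remaining 2 of the strongest 5 lay near the other end of the chromosome. The peak from 87276 to 90614 scored 585.54 over 3339 bp, and the peak from 76727 to 79263 scored 501.09 over 2537 bp. The 5 strongest peaks of chromosome 4 were therefore all within 100 kb of either end of its range of peaks.

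Most of the 5 widest peaks of chromosome 4 were not among its 5 strongest. The widest extended from 149807 to 153365, or 3559 bp, with a score of 196.61, followed by the peak of 3339 bp already named among the strongest. A peak from 1047212 to 1050267 was 3056 bp wide and scored 167.11. Its neighbour, 339 bp away and ending at 1052775, was 2169 bp wide and scored 134.58, and the pair formed the longest closely set region of the chromosome, 5.56 kb. The next widest peaks lay from 1217273 to 1220138, at 2866 bp and a score of 195.44, and from 509380 to 511961, at 2582 bp and a score of 150.25. Peaks wider than 3 kb numbered 3 of 99 on chromosome 4, or 3.03%, against 2.88% on the 4 arms. That share is near the background.

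Myc peaks of chromosome 4 were somewhat wider and higher scoring in the middle of their range than arm peaks. The median width was 929 bp (order-statistic 95% interval 672 to 1145) against 750 bp on the 4 arms, and between 732 bp on 2L and 775 bp on X for single arms. The lower bound of the interval lies below each arm's median. The median score was 80.4 (55.6 to 112.3) against 62.8 on the arms, and the interval again takes in the arm value. At the top of the range, 12 of 99 peaks, or 12.1%, were among the strongest 10% of the list, against 10.8% of arm peaks. The highest score on the 4 arms was 1011.32, above any on chromosome 4.

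Close neighbours were frequent on chromosome 4. Of its 98 intervals, 28 were under 1 kb, or 28.6% (exact binomial 95% interval 19.9% to 38.6%), against 15.3% on the 4 arms and 18.2% on X, the highest of them. As many as 50 of the 99 peaks, or 50.5%, belonged to a chain with every interval under 1 kb, against 26.2% on the arms. These chains were short. Of 22, 17 were pairs, 4 held 3 peaks and 1 held 4. That longest chain closed the chromosome, from 1346515 to 1351122, with scores from 20.46 to 370.39. Without the far stretch the share of intervals under 1 kb was 24.0%.

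Most close pairs of chromosome 4 included a peak below the median score of the list, with no condition set on the stronger peak. In the 28 pairs the stronger peak had a median score of 173.3 and the weaker 19.8. In 23 of them, or 82.1%, the weaker peak was below the median score of the list, against 88.5% of the 963 pairs on the arms, so this share was not above the background. An example is the peak that scored 501.09, followed after 147 bp by a peak of 491 bp that scored 17.30. On the 4 arms the corresponding medians were 94.2 and 14.0. Among the 70 wider-spaced neighbours on chromosome 4 the medians were 135.4 and 50.5. With peaks below the median score of the list left out, 10.5% of the intervals on chromosome 4 were under 1 kb, against 3.90% on the arms. Whether a weak peak beside a strong one is a separate binding region or the edge of the same one cannot be told apart from this list.

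**Figure D2:**
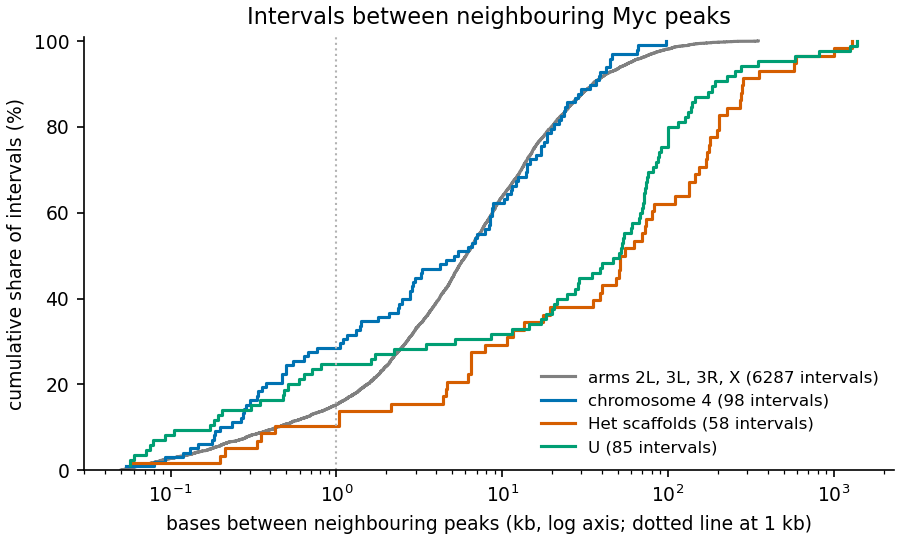
Cumulative share of intervals between neighbouring Myc peaks (vertical axis, %) by length in kb on a log axis, for chromosome 4, the Het scaffolds, U and the 4 arms together. Under 1 kb lie 28.6% of intervals on chromosome 4, 24.7% on U, 10.3% on the Het scaffolds and 15.3% on the arms, and the median is 5.27 kb on chromosome 4 but 53.2 kb on the Het scaffolds and 50.5 kb on U.

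On the Het scaffolds other than XHet, many Myc peaks were separated by long empty stretches. The 2 intervals of XHet were 7.87 and 13.4 kb. Over all 5 scaffolds the median interval was 53.2 kb, against 6.05 kb on the 4 arms. Of 58 intervals, 22 exceeded 100 kb, or 37.9%, against 1.86% on the arms. There were 5 intervals longer than the 350.1 kb that was the longest on the 4 arms. On 3RHet, 1287 kb separated its first peak, at 55260, from its second, at 1342941. On 2RHet, 1006 kb without a peak followed the peak at 1622983. The other 3 were on 3LHet, with 352.0, 574.8 and 589.8 kb. Only 6 intervals were under 1 kb, or 10.3% (3.89% to 21.2%), an interval that takes in the 15.3% of the arms.

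Heterochromatic peaks that were listed had the width and score of ordinary arm peaks in the middle of the range. The median width was 706 bp (487 to 877) and the median score 64.2 (51.5 to 78.2), against 750 bp and 62.8 on the 4 arms. The order by score turned with the arm compared, since the median of the scaffolds was below the 66.1 of 3R and the 65.1 of X. High scores were rare. Of 63 peaks, 1 was among the strongest 10% of the list, or 1.59%, against 10.8% on the arms, and none was wider than 3 kb.

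The strongest Myc peak of the Het scaffolds stood apart from the others. It lay on 2RHet from 369535 to 371080, was 1546 bp wide and scored 656.28, rank 102 in the list. The next strongest, on 3LHet from 1285020 to 1286053, scored 298.35 over 1034 bp. Those on 3RHet from 1523603 to 1524555 and from 2378084 to 2378849, the last peak of that scaffold, scored 251.31 and 220.08. The next, on 2RHet from 2629385 to 2630109, scored 186.60. On 2LHet the first peak, from 32157 to 35088, was both the strongest of the scaffold, at 169.14, and the widest of all the Het scaffolds, at 2932 bp. XHet had no strong peak. Its 3 peaks scored 79.83, 74.01 and 59.94, at widths of 920, 1403 and 684 bp.

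Of the 5 widest peaks of the Het scaffolds, 4 were on 2RHet and 3LHet. On 3LHet the widest, from 601014 to 603167, was 2154 bp and scored 177.46. After 2136 bp it was followed by a peak of 1774 bp that scored 118.37. On 2RHet the widest, from 2900270 to 2902350, was 2081 bp and scored 130.82, and one from 471039 to 472796 was 1758 bp and scored 122.68. On 3RHet the widest, from 1823473 to 1824883, was 1411 bp and scored 165.04. The longest chain of the Het scaffolds had 3 peaks, on 2RHet from 1621418 to 1623275, with scores of 54.24, 12.11 and 10.14. Median scores of the scaffolds with 15 or more peaks were 54.2 on 2RHet, 56.1 on 3RHet and 81.7 on 3LHet, with 95% intervals that overlapped one another.

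**Figure D3:**
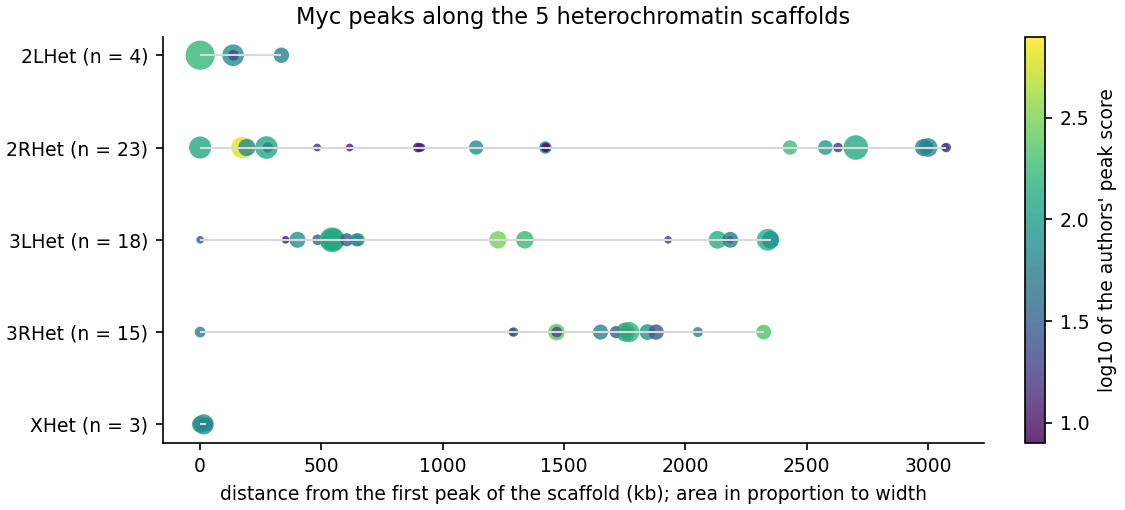
Myc peaks of the 5 Het scaffolds, each placed by its distance in kb from the first peak of its scaffold, with point area in proportion to width and colour giving log10 of the authors' score. The points lie far apart, with the longest gap, 1287 kb, after the first peak of 3RHet, and the single bright point is the 2RHet peak that scored 656.28.

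U combined some of the widest Myc peaks of the whole list with a majority of narrow, low-scoring ones. Its widest peak, from 2166369 to 2183108, was 16740 bp and the widest of all 8614, with a score of 278.93. The peak just before it, from 2153172 to 2166184, was 13013 bp wide, rank 3 in the list, and scored 163.66. A peak of 13751 bp on the arm 2L lay between these in width. The peak of rank 5 in width was on U as well, from 1993933 to 2002991, at 9059 bp and a score of 89.12. The remaining peaks over 3 kb on U were one of 5633 bp from 2007789, with a score of 44.77, and one of 5283 bp from 1988457, with a score of 105.15. These 5 of 86 peaks, or 5.81%, compare with 2.88% of arm peaks wider than 3 kb.

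All 5 fell into a pair of blocks, singled out after the values were seen, in which peaks followed one another almost without a break. The first block, from 1988457 to 2013421, held 5 peaks over 25.0 kb and was 95.8% covered, with no interval over 482 bp. It is the longest chain of U by number of peaks. The second, from 2150551 to 2184598, held 4 peaks over 34.0 kb and was 99.0% covered, with no interval over 184 bp. The blocks lay 137.1 kb apart. The arms also held long chains. The longest, 37.9 kb on 2L, had 11 peaks and was 85.3% covered, and the next, 23.1 kb on X, had 11 peaks and was 86.9% covered. The 9 peaks of the blocks on U supplied 55.6% of all bases covered on U. Scores were moderate, from 44.34 to 105.15 in the first block and from 79.30 to 278.93 in the second, and none of the 9 peaks was among the strongest 10% of the list. What the blocks contain was not analysed here.

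**Figure D4:**
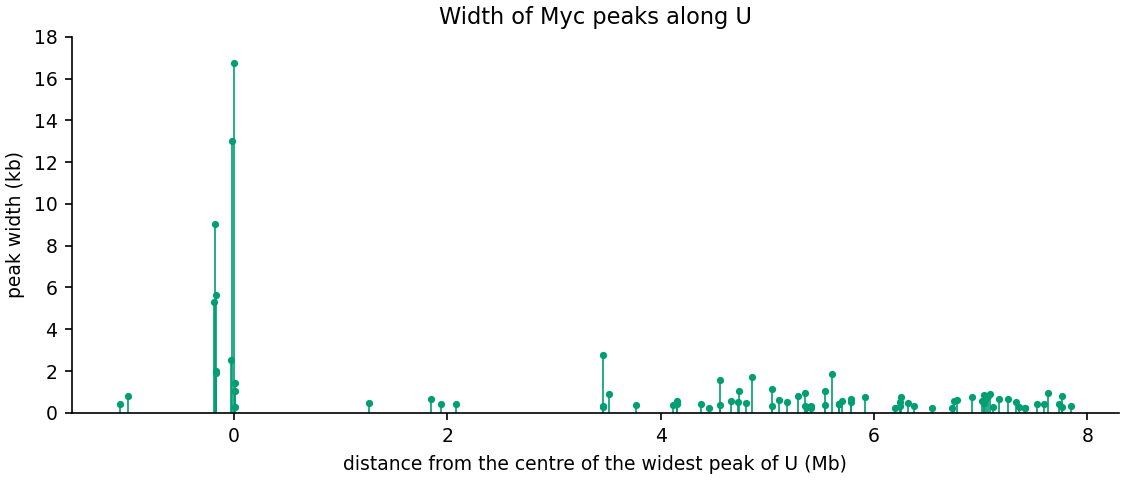
Width in kb of each of the 86 Myc peaks of U (vertical axis) by distance in Mb from the centre of the widest peak (horizontal axis). The blocks of wide peaks stand near 0 with widths up to 16.7 kb, and outside them no peak is wider than 2.77 kb.

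Outside the blocks, Myc peaks on U were narrow. The 77 other peaks had a median width of 481 bp and a median score of 36.0, and together they covered 0.463% of the rest of U. Over all 86 peaks the median width was 527.5 bp (431 to 649) and the median score 43.7 (30.6 to 58.0), and both intervals end below the arm medians of 750 bp and 62.8. Of the 86 peaks, 33 reached the median score of the list, or 38.4%, against 50.7% of arm peaks. Only 3, or 3.49%, were among the strongest 10% of the list.

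These 3 strong peaks of U lay outside the blocks. The strongest, from 5629660 to 5632433, scored 552.80 over 2774 bp and was followed within 105 bp by the first of 2 weak peaks that scored 9.44 and 11.33. The others lay from 6731859 to 6733413, with a score of 403.12 over 1555 bp, and from 6904253 to 6905281, with a score of 344.66 over 1029 bp. Each of them was preceded within 1 kb by a narrower peak, which scored 51.46 and 20.80 in turn. Next by score came the widest peak of the list. The peak after it in score, from 7222513 to 7223654, scored 254.84 and followed 809 bp after a peak that scored 11.99.

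Peaks were unevenly placed along U. Of the 86, 13 lay in the first 2.5 Mb, 4 in the next, then 22 and 46, and 1 lay beyond. The first peak began at 1103318 and the last ended at 10022198. Median width was 2026 bp in the first of these stretches and between 452 and 519 bp in the others of full length. Of 85 intervals, 17 exceeded 100 kb, or 20.0%, and 4 exceeded the longest of the 4 arms, up to 1376 kb after the peak at 4252764. At the same time 21 intervals were under 1 kb, or 24.7% (16.0% to 35.3%), against 15.3% on the 4 arms together and 18.2% on X, which lies inside that interval. Without the blocks the share was 18.4%. Counted under 500 bp, the share was 18.8% on U and 10.8% on the arms, and counted under 2 kb it was 27.1% and 24.2%. Among peaks at or above the median score of the list, the share under 1 kb was 12.5% on U and 3.90% on the arms. In 17 of the 21 close pairs on U, or 81.0%, the weaker peak was below the median score of the list, which again is not above the 88.5% of the arms.

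Width and score were linked in all 3 subgroups, with the lowest coefficient on U. Spearman's rho between width and score, as a description across peaks, was 0.86 on chromosome 4 (99 peaks), 0.85 on the Het scaffolds (63 peaks), 0.67 on U (86 peaks) and 0.82 on the 4 arms (6291 peaks). Both values of a peak come from the same caller and the same reads. Outside the blocks rho on U was 0.64. The list was split into 5 classes of equal size by score. The highest class, from 183.8 upwards, held 21 peaks of chromosome 4 (21.2%), 5 of the Het scaffolds (7.94%) and 7 of U (8.14%), against 21.4% of arm peaks. In it the median widths of the 3 subgroups were 1565, 953 and 1142 bp, against 1401 bp for the 1348 arm peaks of that class. In the class below, from 86.5 to 183.8, the order was different. The 12 Het peaks had a median width of 1656 bp and the 26 peaks of chromosome 4 one of 1260 bp, against 994 bp on the arms and 834.5 bp for the 16 peaks of U. In the lowest class, up to 18.9, the medians were 277 bp on chromosome 4, 249 bp on the Het scaffolds, 329 bp on U and 307 bp on the arms.

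**Figure D5:**
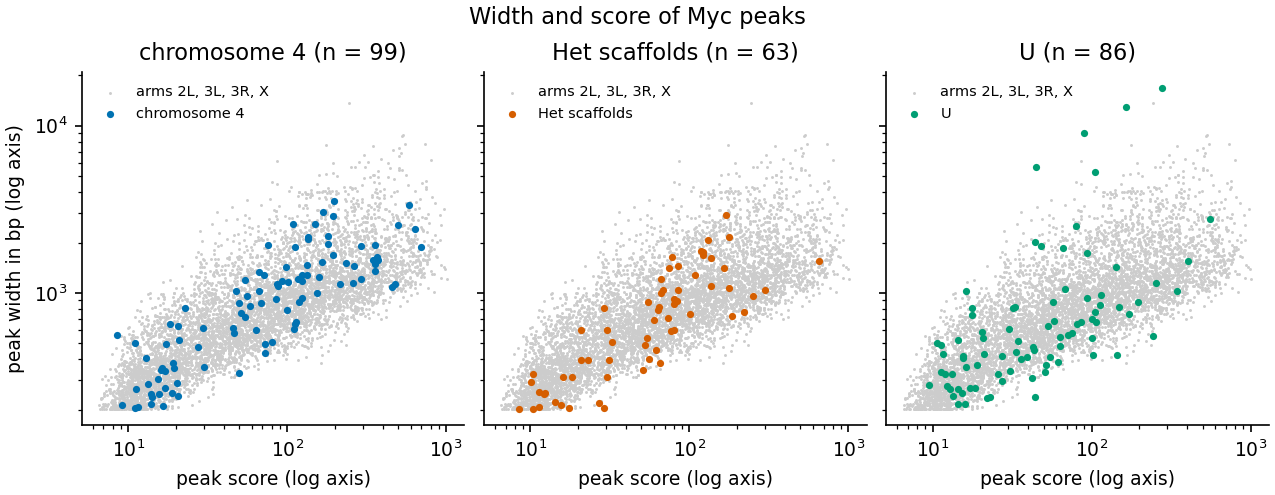
Width in bp against the authors' score, both on log axes, for the peaks of chromosome 4, the Het scaffolds and U (coloured) over the 6291 peaks of the 4 arms (grey). Chromosome 4 and the Het scaffolds lie inside the cloud of arm peaks, while 5 peaks of U between 5283 and 16740 bp lie at its upper edge or above it.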

How the data were processed

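Per the labels, the series has 2 Myc ChIP and 2 input libraries. The file analysed is 1 deposited list of peaks for the whole series, with a start, an end and a score per peak. Per the file headers it is on FlyBase Release 5, and its source column names MACS. MACS2, BWA and CASAVA (1.7.0.3 and 1.7.0.2), and the build BDGP5, are named without roles, per the submitters' processing notes. How peaks were thresholded or filtered, and whether libraries were pooled, is not given in the sources used. The score is as deposited by the authors, on an unnamed scale.

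Members were taken by sequence name. Width is end minus start plus 1, and an interval is the number of bases between neighbouring peaks. Intervals of medians are order-statistic intervals and those of shares exact binomial (Clopper-Pearson), both 95%. Python 3.11.15, pandas 2.3.3 and scipy 1.17.1 were used, and the functions were tested on simulated lists. With no value per library, no test was made. Without an annotation of Release 5, named peaks were the 5 strongest and 5 widest of each subgroup, the strongest and widest of each Het scaffold, the longest chains, the longest empty stretch of chromosome 4, and the first and last peak of each sequence, of which those on the Het scaffolds are given only where a result turns on them. The members, lists and rules were chosen with earlier results of these data known. The stretch at the end of chromosome 4 (the last run of peaks with every interval under 10 kb), the blocks on U (chains holding a peak over 5 kb) and the counts per gene were chosen after the values were seen.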

Additional observations from a re-analysis of the deposited data

How the results depend on the processing

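Of 81 alternative values, 67 stayed within limits. The limit was 1.5 times for a count or density and the 95% interval for a share or median, and a difference of medians could move within the 95% interval of the subgroup's median without changing sign. For a density these limits do not judge the order against the arms. With close peaks merged, chromosome 4 stayed within them at 52.5 per Mb but fell below the 53.3 of X, the lowest of the 4 arms. Without the far stretch it stayed within them at 59.3 per Mb, and no like stretch was left out on the arms. Keeping only peaks at or above the median score of the list left 58 peaks on chromosome 4, 34 on the Het scaffolds and 33 on U. Median widths became 1306, 1038.5 and 851 bp, against 1129 bp on the arms, and shares of intervals under 1 kb became 10.5%, 3.45% and 12.5%. This setting lowers the number of peaks by construction. The far stretch of chromosome 4 held 13 in place of 23 peaks with close peaks merged and 13 with weaker peaks left out. In both settings its rank above every window of the 4 arms was lost. The median score of the Het scaffolds minus that of the arms, 1.44 over the 4 arms together, was 3.77 against 2L, 4.70 against 3L, −1.86 against 3R and −0.89 against X. The density of XHet was 35.3 per Mb from base 1 and 123.4 from first to last peak. Merging within 100 bp, intervals of 500 bp or 2 kb, a span from first to last peak for the 3 subgroups, and each Het scaffold left out in turn moved no value past these limits. Leaving out the far stretch, leaving out the blocks on U, counting genes of every kind, the other span for XHet and both settings for the far stretch itself were chosen after seeing the data. No paired analysis was possible because the list is one for all libraries, and leaving out a replicate was likewise not possible. The unknown depth limits what can be said of stretches without a peak.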

Other observations

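Peaks of the Het scaffolds and of U often shared their exact score, to 2 decimals, with another peak of the list. A shared score was found for 61 of the 63 Het peaks, or 96.8%, and for 74 of the 86 peaks of U, or 86.0%, against 52.1% of the whole list. On chromosome 4 it was found for 56 of the 99 peaks, or 56.6%, which is near the share of the whole list. On 2RHet, for example, the peaks at 197656 and 471039 both scored 122.68, at widths of 1686 and 1758 bp. No explanation of the shared values was tested.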
